A study of Mus musculus with 7 samples.

Results

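The genes described here are 27 members of the cholesterol synthesis and sterol regulation pathway, chosen by symbol from a list of pathway enzymes, regulators and sterol carriers, out of 31053 genes in the files. All 27 were found, each in 1 row. They comprise 6 genes of the mevalonate steps, 5 of the isoprenoid and squalene steps, 8 of the steps after lanosterol, 5 regulators and 3 genes of sterol transport and storage. They were measured by droplet single-cell RNA sequencing of the postnatal mouse forebrain, in 7 libraries that served as samples. The series compared early postnatal with adult tissue. The 4 early libraries were P2 cortex, P7 cortex and P15 cortex of CD1 mice and P7 SVZ of C57BL/6 mice, where P gives the postnatal day and SVZ is the ventricular-subventricular zone lining the lateral ventricle. The 3 adult libraries, all from CD1 mice, were P60 cortex, P60 GM (grey matter) and P60 WM (white matter with the adjoining ventricular-subventricular zone). The whole-cortex dissections also held white matter and ventricular-subventricular zone. No treatment or engineered allele is named for any group. How many animals went into a library is not given in the sources used here, so p-values measure the spread between these libraries.

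Cholesterol is built from acetyl units through mevalonate, isoprenoid diphosphates, squalene and lanosterol, and the last enzymes of the pathway trim lanosterol to cholesterol. The transcription factors encoded by Srebf1 and Srebf2 are held in the endoplasmic reticulum with the escort protein Scap by the Insig proteins when sterols are plentiful, and are released to activate pathway genes when sterols are scarce. The brain makes its own cholesterol because the blood-brain barrier keeps out plasma lipoproteins, and it uses much of it in astrocytes, which export it, and in oligodendrocytes, which build myelin from it.

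Promoter sequences were available for 22 of the 27 members (RefSeq, build GRCm38.p6, 250 bases before to 50 after the start). A member with more than 1 start, such as Insig2, Dhcr7 or Srebf1, counted as holding a motif when any of its starts did. Hmgcs1 encodes HMG-CoA synthase and changed in all 6 class comparisons below. It was the 1 member of the 22 with the sterol regulatory element letters TCACNCCAC on either strand. Of all 27025 genes with promoters of that length, 1.44% held these letters. The NF-Y motif CCAAT stood in 20 of 22 members (90.9%), against 41.1% of all these genes. Among the 7769 genes with a promoter that passed the low-count filter in OPC-like cells, the share was 43.7%. The Sp1 motif GGGCGG also stood in 20 of 22, against 38.2% of all genes with promoters and 72.1% of the same filtered genes. NF-Y and Sp1 are general promoter-binding factors and were searched on both strands. In the stretches printed below no matches overlap. These matches are descriptions of the letters, not of binding.

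The stretches from 180 to 31 bases before the start are shown for 4 enzyme genes that changed in at least 5 class comparisons and for Acat2, 1 of the 2 members without CCAAT, with motif letters of either strand in capitals (ATTGG and CCGCCC are the reverse complements of CCAAT and GGGCGG).
Hmgcs1 (chr13:119690171-119690320, plus strand): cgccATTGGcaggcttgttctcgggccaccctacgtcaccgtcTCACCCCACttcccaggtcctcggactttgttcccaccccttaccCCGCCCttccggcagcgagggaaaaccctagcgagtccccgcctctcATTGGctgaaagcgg
Mvk (chr5:114444089-114444238, plus strand): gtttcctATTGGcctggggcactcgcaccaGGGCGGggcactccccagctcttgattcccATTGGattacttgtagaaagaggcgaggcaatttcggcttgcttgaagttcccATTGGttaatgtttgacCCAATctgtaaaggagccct
Mvd (chr8:122443453-122443602, minus strand): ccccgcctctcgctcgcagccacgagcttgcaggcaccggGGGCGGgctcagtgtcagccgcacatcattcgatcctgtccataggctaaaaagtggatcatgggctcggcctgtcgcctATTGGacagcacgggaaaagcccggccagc
Lss (chr10:76531425-76531574, plus strand): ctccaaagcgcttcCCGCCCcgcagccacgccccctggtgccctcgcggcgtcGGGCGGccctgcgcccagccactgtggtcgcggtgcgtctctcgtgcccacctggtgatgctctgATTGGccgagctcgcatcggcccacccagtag
Acat2 (chr17:12960756-12960905, minus strand): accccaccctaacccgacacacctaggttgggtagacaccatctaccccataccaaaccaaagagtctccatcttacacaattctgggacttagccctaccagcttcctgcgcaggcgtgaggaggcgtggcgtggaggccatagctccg
In Hmgcs1 the sterol element lies between a CCAAT match upstream of it and an Sp1 match downstream. Mvk, mevalonate kinase, holds 4 CCAAT matches in this stretch, whereas Mvd and Lss hold 1 each. No complete motif falls within the stretch of Acat2.

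After filtering, 20709 of 25747 barcodes were kept, with 1861 to 4067 cells and a median of 2791 to 9537 unique molecular identifiers (UMIs) per cell by library. The P7 SVZ library stood apart in that 39.8% of its barcodes exceeded the mitochondrial limit. Barcode sequences found in more than 1 library numbered 190, and 140 among kept cells. Cells were clustered without the pathway genes and named from marker genes as OPC-like (oligodendrocyte precursor), COP-like (committed precursor and newly formed oligodendrocyte), mature oligodendrocyte-like, astrocyte-like, microglia-like, neuroblast-like and excitatory neuron-like, and UMIs were summed by class and library. Levels are counts per 1000000 UMIs of that sum (CPM). They are compared between classes and libraries for 1 gene at a time, and not between genes, since transcripts of different genes are not captured alike.

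The summed level of the members differed between cell classes and, within a class, between libraries. The 27 members summed to 3315 to 6894 CPM over 7 libraries in astrocyte-like cells, against 1124 to 3028 CPM in OPC-like cells and 493 to 1072 CPM in microglia-like cells. The lowest astrocyte-like sum thus lay above the highest OPC-like sum, and the lowest OPC-like sum above the highest microglia-like sum. Mature oligodendrocyte-like cells spanned the widest range, from 1471 CPM in P60 cortex to 5867 CPM in P15 cortex, where astrocyte-like cells held 3852 CPM. COP-like cells held 1840.2 to 3923 CPM, excitatory neuron-like cells 954 to 2788 CPM and neuroblast-like cells 782 to 1460.0 CPM. The classes were present in different sets of libraries, so their means over libraries are not ranked. In CPM a lower share of a cell's RNA and a larger amount of other RNA cannot be told apart.

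**Figure D1:**
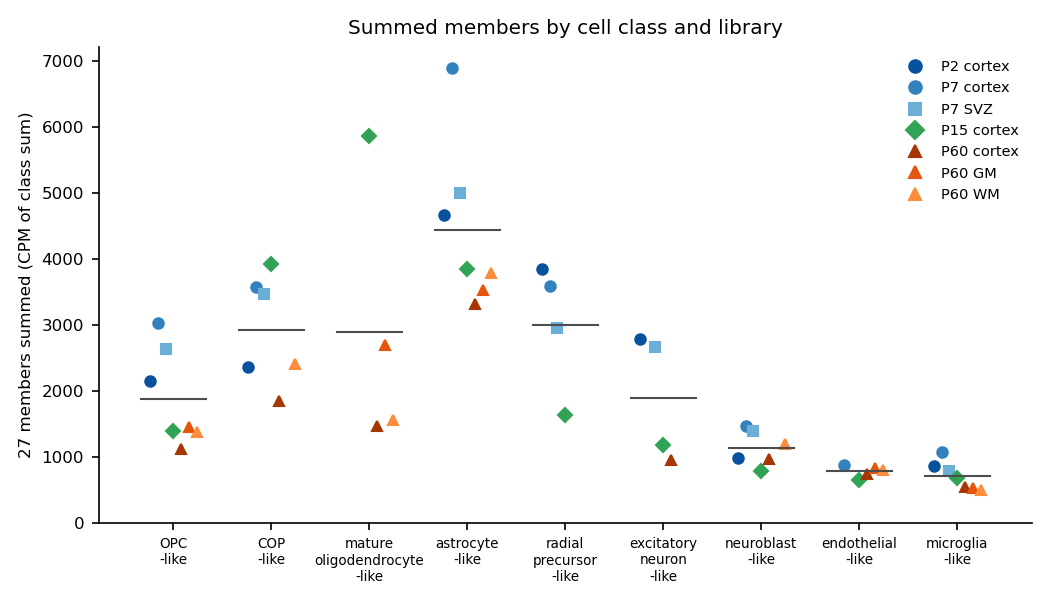
Summed CPM of the 27 members in each cell class sum, 1 point per library, with a line at the mean over libraries. The 7 astrocyte-like points all lie above the 7 OPC-like points, and the P15 cortex point of the mature oligodendrocyte-like class stands at 5867 CPM, above the 3 adult ones.

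Compared with OPC-like cells of the same libraries, 25 of 27 members were higher and 1 was lower in astrocyte-like cells (edgeR quasi-likelihood test with library as a block, adjusted p under 0.05), where 24.3% of all genes tested were higher and 24.4% lower. All 6 mevalonate genes rose. Hmgcs1 was at 244 to 1370.5 CPM (median 429) in astrocyte-like and 64.2 to 455 CPM (median 139) in OPC-like cells, higher in 7 of 7 libraries (log2 fold change 1.77, SE 0.16, adjusted p = 2.08e-06). Mvd, mevalonate diphosphate decarboxylase, was at 77.6 to 169 CPM (median 116) against 17.3 to 81.3 CPM (median 35) (log2 fold change 1.85, SE 0.21, adjusted p = 1.47e-05), higher in 7 of 7 libraries; the ranges overlapped by the P60 GM astrocyte-like and P7 cortex OPC-like values. Idi1, which interconverts the isoprenoid building blocks, rose as well (log2 fold change 1.6, SE 0.25, adjusted p = 0.000202). Of the isoprenoid and squalene genes, 4 of 5 rose, with Fdft1, squalene synthase, showing the largest fold (log2 fold change 2.0). Ggps1, which diverts farnesyl diphosphate to geranylgeranyl diphosphate and so away from sterols, did not pass the test (log2 fold change 0.06, adjusted p = 0.787), and it passed in none of the 6 class comparisons.

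The 2 members with the largest folds in astrocyte-like cells, Tm7sf2 and Msmo1, act after lanosterol. Msmo1, which oxidises the methyl groups of lanosterol derivatives, was at 504 in P2 cortex, 1124 in P7 cortex, 481 in P7 SVZ, 860.3 in P15 cortex, 623 in P60 cortex, 733 in P60 GM and 692 in P60 WM (CPM). In OPC-like cells its values were 160.2 in P2 cortex, 259 in P7 cortex, 234 in P7 SVZ, 70.7 in P15 cortex, 49.4 in P60 cortex, 77.8 in P60 GM and 74.4 in P60 WM (CPM). Every astrocyte-like value exceeded every OPC-like value (log2 fold change 2.9, SE 0.36, adjusted p = 3.58e-05). Tm7sf2, a sterol reductase, was at 32.5 to 173 CPM (median 61.6) in astrocyte-like cells against 2.47 to 21.9 CPM (median 8.0) in OPC-like cells, again without overlap (log2 fold change 3.1, SE 0.18, adjusted p = 5.25e-08). Low OPC-like values can rest on few UMIs, since 3 UMIs equal 7.41 CPM in the P60 cortex sum and 8.26 CPM in the P60 WM sum. Ebp, the sterol isomerase, was the exception and was lower in 7 of 7 libraries, at 10.9 to 31 CPM (median 14.5) against 27.5 to 37 CPM (median 31.3) (log2 fold change -0.66, SE 0.18, adjusted p = 0.0111). Scaling by library size alone moved the median of all genes by -0.30 on the log2 scale and left 22 members higher and 1 lower. Here and below, member counts under other settings stand without the share of all genes passing under them.

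Along the oligodendrocyte lineage, 18 of 27 members were higher and 1 was lower in COP-like than in OPC-like cells over 6 libraries, against 24.7% and 28.9% of all genes. The 18 included all 6 mevalonate genes, 4 of 5 isoprenoid and squalene genes, 7 of 8 genes after lanosterol and the regulator Insig1. Mvd was at 111 in P2 cortex, 132 in P7 cortex, 120.4 in P7 SVZ, 167 in P15 cortex, 68.6 in P60 cortex and 84.1 in P60 WM (CPM), and OPC-like cells of the same libraries were lower in all 6 (log2 fold change 1.64, SE 0.19, adjusted p = 3.83e-06). Lss, lanosterol synthase, was higher in 6 of 6 libraries (log2 fold change 1.52, SE 0.25, adjusted p = 0.000105). Soat1, which esterifies cholesterol for storage, was the 1 member that was lower (log2 fold change -0.58, SE 0.17, adjusted p = 0.0114). Without the library block the number of members higher in COP-like cells fell to 7, and it was 13 with the newly formed cells of cluster 33 left out.

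In mature oligodendrocyte-like cells, 18 of 25 members tested were higher and 1 was lower than in OPC-like cells over 4 libraries, against 22.1% and 24.2% of all genes. The 2 untested members, Tm7sf2 and Stard4, did not pass the low-count filter. Hmgcs1 was at 1869 in P15 cortex, 148 in P60 cortex, 302 in P60 GM and 154 in P60 WM (CPM). P15 cortex stood far above the 3 adult libraries, and all 4 exceeded their own OPC-like values (log2 fold change 2.32, SE 0.52, adjusted p = 0.00445). Cyp51, the lanosterol demethylase, was at 338 in P15 cortex, 39.8 in P60 cortex, 191 in P60 GM and 38.5 in P60 WM (CPM), with P15 cortex highest and P60 WM lowest (log2 fold change 2.38, SE 0.43, adjusted p = 0.00132). Sc5d, a desaturase near the end of the pathway, was at 146 in P15 cortex, 89.1 in P60 cortex, 104 in P60 GM and 92.9 in P60 WM (CPM) and was higher than in OPC-like cells in all 4 libraries (log2 fold change 1.88, SE 0.26, adjusted p = 0.000208). Without P15 cortex 13 of 22 members were higher. With library-size scaling, which moved the median of all genes by -0.69, 11 of 25 were higher and 1 lower.

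Within the P15 cortex library the stages could be set side by side in 4 clusters, so that no library difference entered. The 27 members summed to 1323 CPM in OPC-like cluster 12 (402 cells), 2057 in COP-like cluster 16 (340 cells), 7331 in COP-like cluster 33 (85 cells, with Rras2, Nfasc and Mag among its leading genes) and 5867 in mature cluster 36 (201 cells). The highest sum was therefore in cluster 33, which carried 6545 CPM of COP markers and 23223 CPM of mature oligodendrocyte markers. Its cells had a median of 21888 UMIs, against 5337 in cluster 12 and 9608 in cluster 16, and the part of depth in the difference was not tested. From cluster 16 to cluster 33, 21 members had a 95% conditional interval of the ratio above 1 and 3 below 1. These intervals cover counting error only, since there was 1 library on each side and no test was possible. The share of all genes with such intervals is not given, here or for the cluster and tissue pairs below. The counts are therefore not set against those of all genes.

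Hmgcs1 stood at 1893 against 297 CPM, a ratio of 6.37 (95% interval 5.94 to 6.83), for cluster 33 against cluster 16. For Fdps, which makes farnesyl diphosphate, the values were 826 against 178 CPM, a ratio of 4.64 (95% interval 4.22 to 5.1). Srebf2, the factor most tied to sterol genes, was at 158 against 55.3 CPM, a ratio of 2.86 (95% interval 2.37 to 3.44). The step from cluster 12 to cluster 16 was smaller, with a median ratio of 1.43 over the 27 members, and Srebf2 was lower in cluster 16 at 55.3 against 81.4 CPM, a ratio of 0.68 (95% interval 0.553 to 0.836). From cluster 33 to cluster 36, 18 members had intervals below 1 and 3 above. Hmgcs1 did not separate these clusters, at 1869 against 1893 CPM, a ratio of 0.987 (95% interval 0.949 to 1.03). Npc1, which exports cholesterol from lysosomes, ran the other way, at 97.3 against 52.1 CPM, a ratio of 1.87 (95% interval 1.5 to 2.35).

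**Figure D2:**
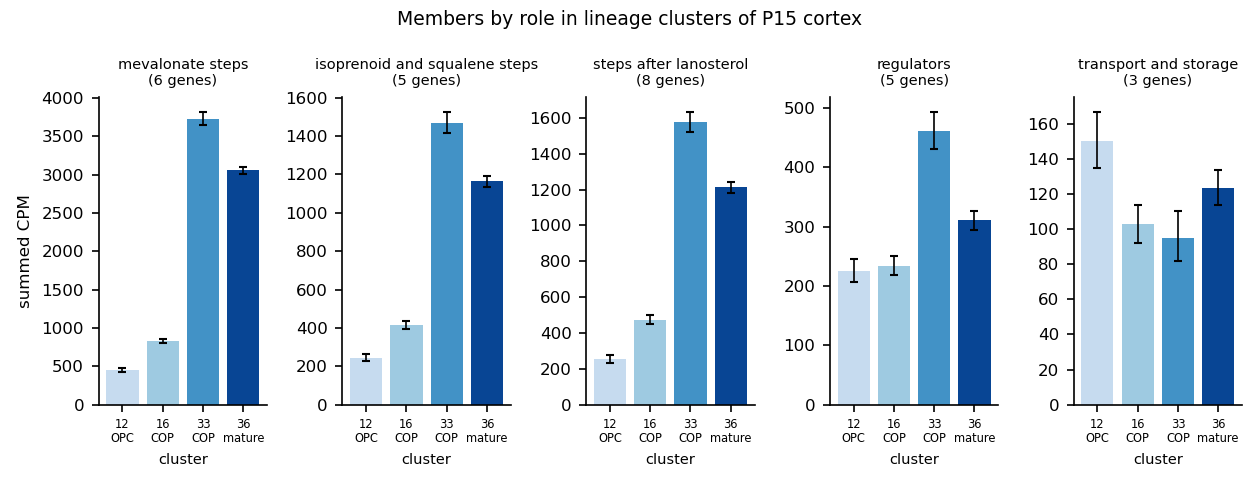
Summed CPM of the members of each role in 4 oligodendrocyte-lineage clusters of P15 cortex (bars from 0, error bars 95% Poisson intervals, separate vertical scales). The mevalonate genes sum to 447 CPM in cluster 12, 3729.9 in cluster 33 and 3057 in cluster 36, whereas the transport and storage genes are highest in cluster 12 at 150.2 CPM.

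The adult mature oligodendrocyte-like cells fell mainly into another cluster, 49, with Ptgds and Ermn among its leading genes, in which the members summed to 1464 CPM in P60 cortex, 2178 in P60 GM and 1506 in P60 WM. In P60 WM 46 cells fell into cluster 36. They held more than the 843 cells of cluster 49 beside them, at 2052 against 1506 CPM, a ratio of 1.36 (95% interval 1.27 to 1.46) for the summed members. Median UMIs per cell were 10302 in cluster 36 and 4892 in cluster 49, and mature oligodendrocyte markers summed to 39517 and 23093 CPM. The part of either in the difference was not tested. Cluster 36 in P15 cortex held 5867 CPM, above its P60 WM value of 2052 CPM, so the sums of 1 cluster also differed between these libraries.

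Microglia-like cells showed the reverse of astrocyte-like cells for most enzymes. Relative to OPC-like cells, 15 of 26 members tested were lower and 3 were higher, against 28.8% and 32.8% of all genes. All 6 mevalonate genes, 4 of 5 isoprenoid and squalene genes and 4 of 8 genes after lanosterol were lower. Sqle, squalene epoxidase, was at 26.8 in P2 cortex, 46.7 in P7 cortex, 16 in P7 SVZ, 7.63 in P15 cortex, 2.43 in P60 cortex, 3.15 in P60 GM and 2.48 in P60 WM (CPM). Each value lay below that of OPC-like cells in its library, and the 3 adult values were the lowest (log2 fold change -2.45, SE 0.20, adjusted p = 8.39e-07). Idi1 was at 7.3 to 39.7 CPM (median 15.3) against 39.5 to 302 CPM (median 68.7) in OPC-like cells (log2 fold change -1.79, SE 0.16, adjusted p = 1.61e-06).

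Ebp was 1 of the 3 higher members, in the opposite direction from astrocyte-like cells. Its values in microglia-like cells were 98.2 in P2 cortex, 96.3 in P7 cortex, 92.5 in P7 SVZ, 88.4 in P15 cortex, 93.8 in P60 cortex, 71.8 in P60 GM and 74.3 in P60 WM (CPM), a narrow range that lay wholly above the OPC-like range of 27.5 to 37 CPM (median 31.3) (log2 fold change 2.23, SE 0.13, adjusted p = 6.46e-08). Soat1 was called higher (log2 fold change 1.09, SE 0.35, adjusted p = 0.0171) although its CPM exceeded that of OPC-like cells in 4 of 7 libraries only. Insig2 was called higher as well (log2 fold change 0.53, SE 0.16, adjusted p = 0.0141), yet its CPM was lower in 6 of 7 libraries and its fold turned to -0.31 with library-size scaling. That scaling moved the median of all genes by -0.76 and gave 22 members lower and 1 higher. The 1 was Ebp (log2 fold change 1.44), and Soat1 then stood at 0.28 and did not pass.

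In neuroblast-like cells 16 of 26 members tested were lower than in OPC-like cells and 0 were higher, against 24.6% and 22.6% of all genes. At an unadjusted p under 0.05, 17 members passed in this comparison, as did 4938 of all 9137 genes tested. Msmo1 was at 27.2 in P2 cortex, 75.8 in P7 cortex, 99 in P7 SVZ, 11.7 in P15 cortex, 6.86 in P60 cortex and 43.7 in P60 WM (CPM), below the OPC-like value in all 6 libraries (log2 fold change -1.54, SE 0.23, adjusted p = 0.000182). Mvd was at 5.46 to 16.4 CPM (median 14), again lower in 6 of 6 (log2 fold change -1.75, SE 0.24, adjusted p = 9.1e-05). The sums of P15 cortex (44 cells) and P60 cortex (43 cells) were small, with 3 UMIs equal to 17.5 and 20.6 CPM. Both genes rested there on fewer than 3 UMIs. Without P7 cortex 8 members were lower, and the count was 9 with doublet calls kept and 8 with the mitochondrial limit at 20%.

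In excitatory neuron-like cells, 2 of 27 members were higher and 3 lower over 4 libraries, against 17.6% and 17.1% of all genes. Hmgcs1 was at 514 in P2 cortex, 602 in P7 SVZ, 297 in P15 cortex and 117 in P60 cortex (CPM), above the OPC-like value in all 4 libraries (log2 fold change 0.87, SE 0.25, adjusted p = 0.027). Tm7sf2 was the other higher member (log2 fold change 1.35, SE 0.32, adjusted p = 0.0134). The 3 lower members were Srebf1, Npc1 and Soat1. The 2 higher calls did not both hold when P2 cortex, P7 SVZ, P15 cortex or P60 cortex was left out, which gave 0 or 1 higher. The class held different clusters in different libraries: 5, 8 and 10 in P2 cortex (42.7%, 38.7% and 17.9%), 25 in P7 SVZ (99.2%) and 45 in P15 cortex and P60 cortex (100%). Neuroblast markers summed to 6917, 6366, 1224 and 691 CPM in the same order. Fdps followed that split, at 467 in P2 cortex, 458 in P7 SVZ, 23.3 in P15 cortex and 27.4 in P60 cortex (CPM), with P2 cortex and P7 SVZ high and the 2 libraries of cluster 45 low. The part of the cluster makeup in this was not tested.

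**Figure D3:**
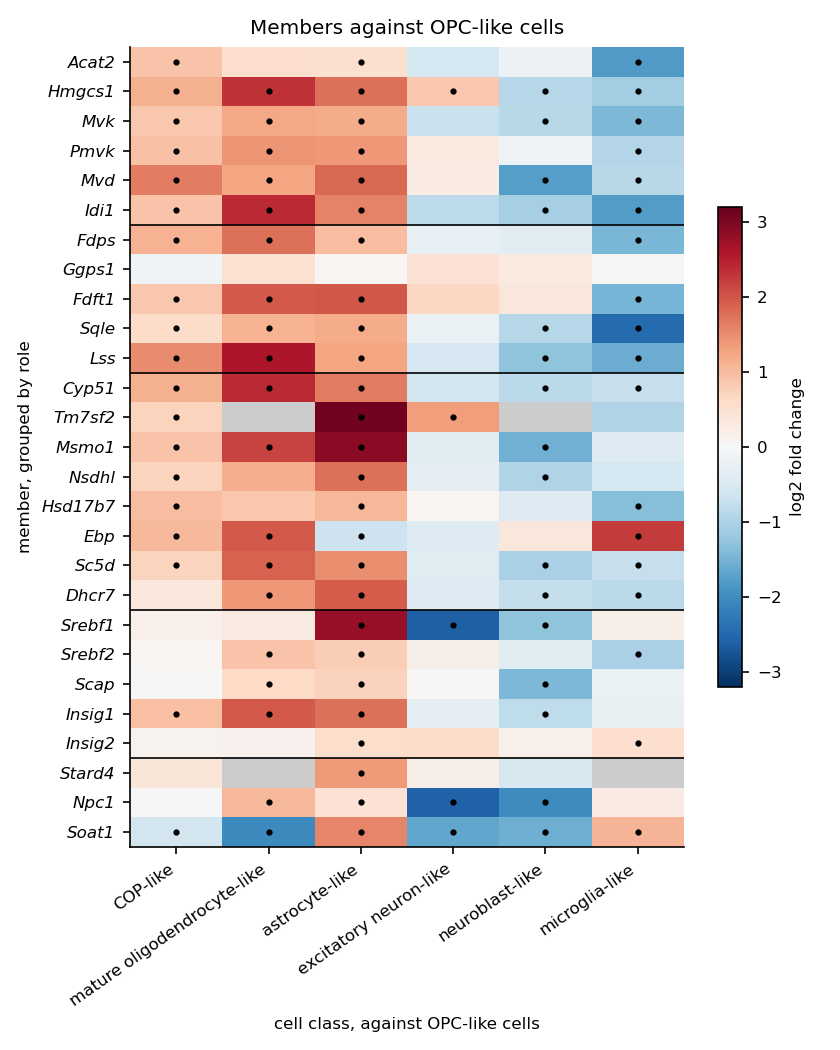
Log2 fold change of each member (rows, grouped by role) in 6 cell classes against OPC-like cells of the same libraries; dots mark adjusted p under 0.05 and grey cells were not tested. Red fills most enzyme rows in the COP-like, mature oligodendrocyte-like and astrocyte-like columns and blue in the neuroblast-like and microglia-like columns, with Ebp reversed in the astrocyte-like and microglia-like columns.

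Against OPC-like cells, all 5 regulators were higher in the astrocyte-like class (24.3% of all genes), 3 of 5 in the mature oligodendrocyte-like class (22.1%) and 1 of 5 in the COP-like class (24.7%), with 0 lower in each. In the neuroblast-like class 3 of 5 were lower (24.6% of all genes), in the excitatory neuron-like class 1 was lower (17.1%), and in the microglia-like class 1 was higher and 1 lower (32.8% and 28.8%). Srebf1, the factor also tied to fatty acid genes, was at 81.7 in P2 cortex, 106 in P7 cortex, 66.4 in P7 SVZ, 116 in P15 cortex, 138 in P60 cortex, 276 in P60 GM and 138 in P60 WM (CPM) in astrocyte-like cells. Its OPC-like values were 12.5 in P2 cortex, 9.96 in P7 cortex, 9.9 in P7 SVZ, 21.7 in P15 cortex, 42 in P60 cortex, 66.2 in P60 GM and 33.1 in P60 WM (CPM), lower in 7 of 7 libraries (astrocyte-like against OPC-like, log2 fold change 2.78, SE 0.19, adjusted p = 1.8e-07). The ranges did not overlap, though the lowest astrocyte-like value, in P7 SVZ, was close to the highest OPC-like value, in P60 GM. In excitatory neuron-like cells Srebf1 was at 1.75 to 5.04 CPM (median 2.45) (log2 fold change -2.6, SE 0.38, adjusted p = 0.00149).

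Srebf2 was at 88.6 to 164 CPM (median 127) in astrocyte-like, 61.3 to 123 CPM (median 86.9) in OPC-like and 69.6 to 100.1 CPM (median 82.5) in COP-like cells. The first exceeded the second in 6 of 7 libraries (log2 fold change 0.78, SE 0.20, adjusted p = 0.00717), and COP-like cells did not pass the test (log2 fold change 0.06, adjusted p = 0.701). In microglia-like cells Srebf2 was at 13.4 in P2 cortex, 47.7 in P7 cortex, 27.7 in P7 SVZ, 22.4 in P15 cortex, 16 in P60 cortex, 21.8 in P60 GM and 18.6 in P60 WM (CPM), below every OPC-like value (log2 fold change -1.03, SE 0.22, adjusted p = 0.00167). In excitatory neuron-like cells it was at 83.7 in P2 cortex, 54.6 in P7 SVZ, 157 in P15 cortex and 162 in P60 cortex (CPM), with the 2 high values in the libraries whose cells were all in cluster 45.

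Scap, the escort protein of both factors, was at 36 to 83.4 CPM (median 41.7) in astrocyte-like, 27.7 to 46.4 CPM (median 33.8) in OPC-like and 7.33 to 20.8 CPM (median 11.3) in neuroblast-like cells. It was higher in the first (log2 fold change 0.74, SE 0.17, adjusted p = 0.00391) and lower in the last (log2 fold change -1.43, SE 0.23, adjusted p = 0.000254). In mature oligodendrocyte-like cells it was called higher (log2 fold change 0.64, SE 0.22, adjusted p = 0.0381), but its fold was -0.02 with library-size scaling. Insig1, a target of the pathway as well as its brake, was at 99.6 in P2 cortex, 231 in P7 cortex, 128 in P7 SVZ, 195 in P15 cortex, 297 in P60 cortex, 138 in P60 GM and 442 in P60 WM (CPM) in astrocyte-like cells, with P60 WM highest and P2 cortex lowest. It rose against OPC-like cells in the astrocyte-like (log2 fold change 1.76, SE 0.36, adjusted p = 0.00142), mature oligodendrocyte-like (log2 fold change 1.97, SE 0.27, adjusted p = 0.000202) and COP-like (log2 fold change 0.96, SE 0.22, adjusted p = 0.00187) classes. Insig2 was at 32.5 to 62.9 CPM (median 39.9) in astrocyte-like and 19.6 to 61.7 CPM (median 49.4) in OPC-like cells. It passed the test in astrocyte-like cells (log2 fold change 0.56, SE 0.17, adjusted p = 0.0163), although the ranges overlapped and its CPM was higher in 5 of 7 libraries.

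Among the transport and storage genes, Soat1 passed the test in all 6 class comparisons. By edgeR its call in COP-like cells was lost with sums of at least 50 cells, without the library block, without cluster 33 and without P15 cortex. Its call in microglia-like cells was lost with library-size scaling and without P7 cortex or P7 SVZ, and that in excitatory neuron-like cells without the library block. Soat1 was at 40.4 in P2 cortex, 70.4 in P7 cortex, 67.8 in P7 SVZ, 103 in P15 cortex, 137 in P60 cortex, 118 in P60 GM and 134 in P60 WM (CPM) in astrocyte-like cells and 15.1 in P2 cortex, 20.7 in P7 cortex, 31.3 in P7 SVZ, 34.3 in P15 cortex, 56.8 in P60 cortex, 71.2 in P60 GM and 79.9 in P60 WM (CPM) in OPC-like cells, higher in the former in 7 of 7 libraries (log2 fold change 1.56, SE 0.16, adjusted p = 6.8e-06). Mature oligodendrocyte-like cells held 8.85 in P15 cortex, 8.4 in P60 cortex, 6.94 in P60 GM and 8.24 in P60 WM (CPM), each below its OPC-like value (log2 fold change -2.04, SE 0.32, adjusted p = 0.0005). Of these, the P60 GM value rests on 2 UMIs. Npc1 was at 97.3 to 169 CPM (median 157) in mature oligodendrocyte-like cells and 5.47 to 18.7 CPM (median 11.4) in excitatory neuron-like cells, higher in the former (log2 fold change 1.04, SE 0.18, adjusted p = 0.00117) and lower in the latter (log2 fold change -2.58, SE 0.29, adjusted p = 0.000455) than in OPC-like cells. Stard4, a cytosolic sterol carrier, rose in astrocyte-like cells (log2 fold change 1.37, SE 0.22, adjusted p = 0.000307) and in no other class tested.

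The comparison of stages within OPC-like cells gave 12 members lower and 2 higher of 27 in the adult libraries, where 3.61% of all genes tested were lower and 3.15% higher. The lower genes were 5 mevalonate genes, 4 isoprenoid and squalene genes, Cyp51, Msmo1 and Stard4. Hmgcs1 was at 292, 455, 436 and 139 CPM in P2 cortex, P7 cortex, P7 SVZ and P15 cortex. In P60 cortex, P60 GM and P60 WM it was at 64.2, 123 and 121 CPM. The groups did not overlap, but P15 cortex lay nearer to the adult values than to the other early ones (log2 fold change -1.9, SE 0.41, adjusted p = 0.0192).

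In the same library order, Sqle was at 161, 235, 150.3 and 67.4 CPM early and 34.6, 57.9 and 52.3 CPM in the adult (log2 fold change -1.88, SE 0.41, adjusted p = 0.0209). Idi1 was at 110.3, 227, 302 and 68.7 CPM early and 39.5, 66.2 and 57.9 CPM in the adult (log2 fold change -1.91, SE 0.48, adjusted p = 0.0323). For both genes the groups were separate, with P15 cortex the lowest early value. Cyp51 was at 119, 151, 219 and 43 CPM early and 22.2, 54.6 and 33.1 CPM in the adult, where P60 GM lay above P15 cortex (log2 fold change -2.04, SE 0.52, adjusted p = 0.0332). Lss was at 32.9, 31.9, 32.6 and 13.3 CPM and 7.41, 11.6 and 5.51 CPM (log2 fold change -1.88, SE 0.51, adjusted p = 0.0442), and Mvd was at 60.5, 81.3, 35 and 38.7 CPM and 17.3, 18.2 and 27.5 CPM (log2 fold change -1.58, SE 0.41, adjusted p = 0.0357). Mvk was at 59.6, 75.7, 60.7 and 45 CPM and 29.6, 38.1 and 27.5 CPM (log2 fold change -1.11, SE 0.30, adjusted p = 0.0442). These 3 did not overlap between the groups, and the lowest early value was in P15 cortex for Lss and Mvk and in P7 SVZ for Mvd. In the P60 cortex and P60 WM sums 3 UMIs equal 7.41 and 8.26 CPM, so Lss rested there on 3 UMIs or fewer. The share of all genes without overlap was not counted.

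Srebf1 was at 12.5, 9.96, 9.9 and 21.7 CPM early and 42, 66.2 and 33.1 CPM in the adult (log2 fold change 1.65, SE 0.36, adjusted p = 0.0203). Soat1 was at 15.1, 20.7, 31.3 and 34.3 CPM early and 56.8, 71.2 and 79.9 CPM in the adult (log2 fold change 1.23, SE 0.29, adjusted p = 0.0268). Neither overlapped between the groups, and P15 cortex was the highest early value in each. Sc5d did not pass the test, at 37.4, 64.1, 85.4 and 40.7 CPM early and 37, 51.3 and 60.6 CPM in the adult (a log2 difference of -0.42 with adjusted p = 0.51).

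The count of lower genes rested on which libraries and clusters were compared. It was 2, 3 and 7 without P2 cortex, P7 cortex and P7 SVZ, 13 without P15 cortex, and 0 without any 1 of the 3 adult libraries; the higher count was 0 without P2 cortex, P7 cortex, P60 cortex or P60 GM and 1 without P60 WM. The makeup of the class moved with stage. Cluster 12 held 96.3%, 98.3% and 97.7% of OPC-like cells in P60 cortex, P60 GM and P60 WM, and 25.9%, 36.2%, 0.546% and 84.1% in P2 cortex, P7 cortex, P7 SVZ and P15 cortex. With cluster 12 alone, in 6 libraries, 0 of 24 members tested passed in either direction, although their median log2 fold change was -0.93, against -0.90 for the whole class. With cycling cells left out 6 members were lower and 0 higher. These counts are given without the share of all genes passing under each setting. A change in the members is therefore not told apart from one among all genes. Cycling markers summed to 1606 to 2857 CPM in the early and 528 to 909 CPM in the adult OPC-like sums.

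Other values moved with stage in OPC-like cells. The 17 genes of the dissociation response summed to 1247 to 3235 CPM early and 2704 to 10776 CPM in the adult, with P60 GM highest. The 11 microglia markers summed to 12.5 to 115 CPM early and 124 to 1275 CPM in the adult, with 9 of the 11 at 0 in P2 cortex and 0 of them at 0 in P60 GM. The 11 astrocyte markers summed to 405 to 683 CPM early and 603 to 1046 CPM in the adult. Median UMIs per cell were 5538 to 7959 early and 3686 to 5348 in the adult. Their part in the stage difference was not tested.

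In astrocyte-like cells 0 of 27 members passed between the stages by edgeR, where 0.192% of all genes were lower and 0.262% higher. An unadjusted p under 0.05 was found for 13 members and for 2685 of all 9916 genes tested. Hmgcs1 was at 780.1, 1095, 1370.5 and 429 CPM in the 4 early libraries, in the order used above, and 244, 284 and 290.0 CPM in P60 cortex, P60 GM and P60 WM (log2 fold change -1.78, SE 0.43, adjusted p = 0.067). The groups did not overlap. Msmo1 was at 504, 1124, 481 and 860.3 CPM early and 623, 733 and 692 CPM in the adult, with the adult values inside the early range (log2 fold change -0.13, SE 0.36, adjusted p = 0.851). Without P15 cortex 10 members were lower and 3 higher in the adult, and DESeq2 gave 6 lower and 0 higher. The share of all genes passing under these settings is not given. A change in the members is therefore not told apart from one among all genes. The clusters changed with stage: 97.5% of cells were in cluster 2 in P2 cortex, 79.9% in cluster 28 in P7 cortex, 91.7% in cluster 43 in P7 SVZ and 90.9% in cluster 24 in P15 cortex, whereas cluster 23 held 94.3%, 74.4% and 94.2% in P60 cortex, P60 GM and P60 WM. Microglia markers summed to 22.1 to 118 CPM early and 149 to 1095 CPM in the adult, and median UMIs per cell were 5127 to 8240.0 early and 2325 to 2584 in the adult. Their part in these values was not tested.

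In microglia-like cells 0 of 25 members tested passed between the stages, against 0.0418% of all genes lower and 0.0105% higher. An unadjusted p under 0.05 was found for 14 members and for 1250 of all 9563 genes tested. Cyp51 was at 49.1, 68.3, 53 and 21.1 CPM early and 9.73, 12 and 9.91 CPM in the adult, without overlap (log2 fold change -2.07, SE 0.42, adjusted p = 0.151). Sqle was at 26.8, 46.7, 16 and 7.63 CPM and 2.43, 3.15 and 2.48 CPM, also without overlap (log2 fold change -2.99, SE 0.61, adjusted p = 0.151). Without P15 cortex 5 members were lower, and by DESeq2 6 were lower, with 0 higher in each. Both counts stand without the share of all genes passing under the setting. This class changed cluster too: cluster 3 held 72%, 95% and 98.5% of cells in P2 cortex, P7 cortex and P7 SVZ, cluster 4 held 81.5% in P15 cortex, cluster 34 76.1% in P60 cortex and cluster 46 92.7% in P60 GM, and P60 WM was spread over clusters 38, 4 and 34. Cycling markers summed to 134 to 2692 CPM early and 166 to 474 CPM in the adult, and dissociation genes to 5055 to 15576 and 8300.1 to 21770.1 CPM. Their part in these values was not tested. In endothelial-like cells, present in 5 libraries, 9 members passed the low-count filter and 0 passed the test, against 5.52% of all genes higher and 4.27% lower. An unadjusted p under 0.05 was found for 0 members and for 1056 of all 4242 genes tested.

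Whether the stage difference itself differed between classes was tested with an interaction term. In astrocyte-like against OPC-like cells 0 of 27 members passed by edgeR (0.3% of all genes higher, 1.52% lower), and 6 were higher without P15 cortex. An unadjusted p under 0.05 was found for 9 members and for 1997 of all 9675 genes tested. In microglia-like against OPC-like cells 0 of 26 passed (0% of all genes higher, 0.00961% lower), and 2 were lower without P15 cortex. Here an unadjusted p under 0.05 was found for 3 members and for 1215 of all 10409 genes tested. For the fits without P15 cortex the share of all genes passing is not given. DESeq2 gave 0 higher and 0 lower in the former and 0 higher and 0 lower in the latter. A different course of the members with age in the classes was therefore not shown.

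**Figure D4:**
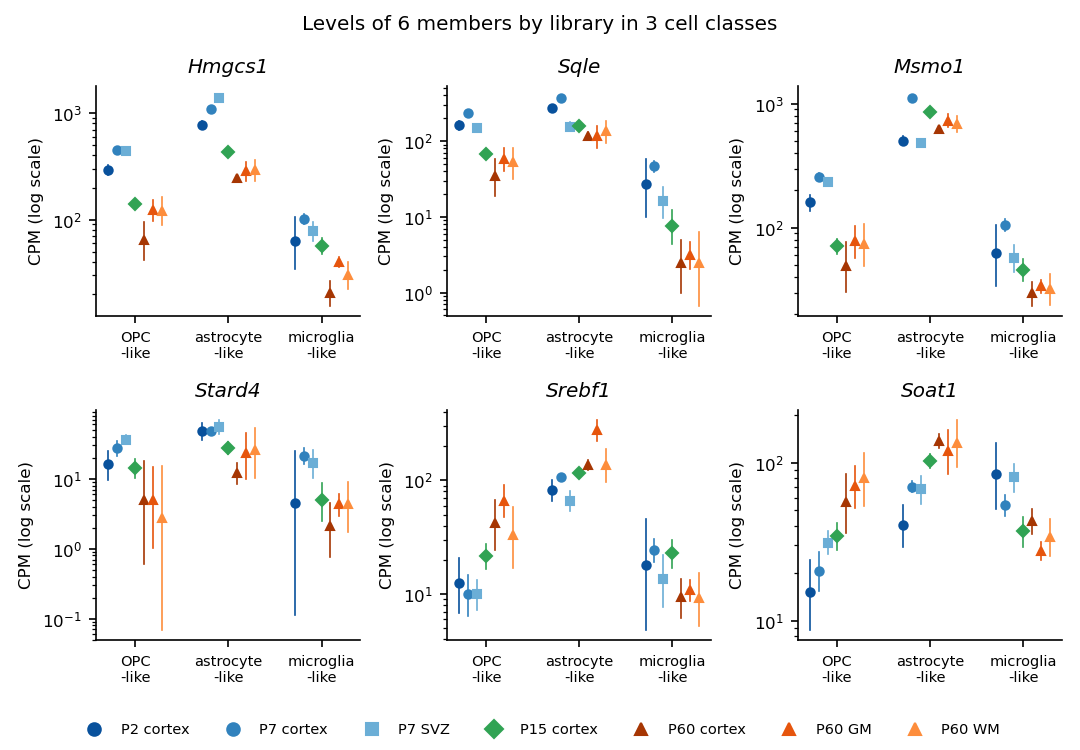
CPM of 6 members (log scale) in OPC-like, astrocyte-like and microglia-like cells, 1 point per library with its 95% Poisson interval, which covers counting error only. Hmgcs1 in OPC-like cells runs from 455 CPM in P7 cortex to 64.2 CPM in P60 cortex, with the P15 cortex point beside the adult ones, whereas Srebf1 in the same cells lies highest in the adult libraries.

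The OPC-like cells of the early cortex fell into more than 1 cluster. In P7 cortex cluster 12, led by Pdgfra, had a higher summed level of members than cluster 15, led by Dll3, at 4011 against 2292 CPM, a ratio of 1.75 (95% interval 1.66 to 1.85). In P2 cortex the same clusters stood at 3399.8 against 1856 CPM, a ratio of 1.83 (95% interval 1.67 to 2.01). Of the 27 members 19 had an interval above 1 in P7 cortex and 12 in P2 cortex, and 0 had one below 1 in either. How many of all genes had such intervals is not given. Msmo1 gave the larger ratios, at 405 against 168 CPM, a ratio of 2.41 (95% interval 2.0 to 2.92) in P7 cortex and 304 against 127 CPM, a ratio of 2.4 (95% interval 1.71 to 3.34) in P2 cortex. The astrocyte markers summed to 1017 CPM in cluster 12 and 369 CPM in cluster 15 of P7 cortex, and to 855 and 284 CPM in P2 cortex. Their part in the difference was not tested. The clusters were made from these cells' expression, with the pathway genes left out.

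A pair of tissue contrasts had 1 library on each side and hence no test. In P60 WM against P60 GM the summed members of mature oligodendrocyte-like cells stood at 1559 against 2701 CPM, a ratio of 0.577 (95% interval 0.536 to 0.622), with 11 members below 1 and 1 above by the 95% interval, which covers counting error only. Msmo1 was at 113 against 316 CPM, a ratio of 0.356 (95% interval 0.285 to 0.45). The P60 GM sum came from 31 cells with 6953 CPM of dissociation genes, against 889 cells and 2920.5 CPM in P60 WM. Of these cells 2 in P60 GM and 46 in P60 WM lay in cluster 36. Cluster 49 alone held 1506 CPM of summed members in P60 WM and 2178 CPM in P60 GM. The part of the cluster makeup in the ratio of 0.577 was not tested. Interval counts over all genes are not given. OPC-like cells of the same tissues stood at 1380.2 against 1454 CPM, a ratio of 0.95 (95% interval 0.849 to 1.06) and astrocyte-like cells at 3792 against 3532 CPM, a ratio of 1.07 (95% interval 0.988 to 1.17), both intervals holding 1.

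In P7 SVZ against P7 cortex, libraries that also differ in mouse strain, so that tissue and strain cannot be told apart, astrocyte-like cells stood at 5004 against 6894 CPM, a ratio of 0.726 (95% interval 0.708 to 0.744), with 17 members below 1 and 2 above. The cells of the 2 libraries lay in different clusters: 91.7% of the P7 SVZ cells were in cluster 43, and 79.9% and 19.9% of the P7 cortex cells were in clusters 28 and 2, which held 7545 and 5063 CPM of summed members. Dissociation genes summed to 7849.9 CPM in P7 SVZ and 3359 CPM in P7 cortex, and the median mitochondrial share was 7.11% and 3.65%. Their part in the difference was not tested. Hmgcs1 was among the 2 members above 1, at 1370.5 against 1095 CPM, a ratio of 1.25 (95% interval 1.19 to 1.31). Msmo1 was among the 17 below 1, at 481 against 1124 CPM, a ratio of 0.428 (95% interval 0.395 to 0.462). COP-like cells of the 2 libraries stood at 3469 against 3568 CPM, a ratio of 0.972 (95% interval 0.943 to 1.0), an interval that held 1, but 9 members lay above 1, 10 below and 8 held it. Of the COP-like cells 89.5% were in cluster 35 in P7 SVZ and 90.9% in cluster 16 in P7 cortex. These main clusters held 2468 and 3081 CPM of summed members. Cluster 33 held 10.5% of the COP-like cells in P7 SVZ (16 cells) and 7.95% in P7 cortex (14 cells). The part of the cluster makeup in the ratio of 0.972 was not tested. Counts of intervals over all genes are not given for either class.

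For Hmgcs1 in P15 cortex, 4 classes kept the order of their CPM when cells with a UMI were counted. After thinning each cell to 2000 UMIs, Hmgcs1 was detected in P15 cortex in 95.5% (191 of 200 cells, exact binomial interval 91.6 to 97.9%) of mature oligodendrocyte-like cells. The share was 52.7% (380 of 721 cells, exact binomial interval 49 to 56.4%) in astrocyte-like cells and 21.5% (101 of 470 cells, exact binomial interval 17.9 to 25.5%) in OPC-like cells. The share in microglia-like cells, the lowest of these 4 classes, was 10.3% (52 of 503 cells, exact binomial interval 7.82 to 13.3%). Without thinning the shares were 100%, 78.2%, 49.4% and 21.2%, at median depths of 23307, 5127, 5538 and 4094 UMIs. Cells under 2000 UMIs were left out, 1, 23, 8 and 31 of them in the same order.

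Neighbouring lipid pathways gave context. Of 14 fatty acid synthesis genes, 12 rose and 0 fell in astrocyte-like against OPC-like cells (24.3% and 24.4% of all genes), with Thrsp, Acss2 and Fads2 at log2 fold changes of 3.84, 3.31 and 2.93. In mature oligodendrocyte-like cells 10 rose and 2 fell (22.1% and 24.2%), Scd1 and Scd2 at 2.91 and 2.88 and Fads2 at -5.63. In microglia-like cells 1 rose and 9 fell (32.8% and 28.8%), and in COP-like cells 6 rose and 4 fell (24.7% and 28.9%). In neuroblast-like cells 0 rose and 8 fell (22.6% and 24.6%), and in excitatory neuron-like cells 0 rose and 5 fell (17.6% and 17.1%). Between the stages of OPC-like cells 0 of the 14 passed, whereas 3 of 15 tested genes of sterol export, uptake and turnover were higher in the adult (3.15% of all genes) and 0 lower. These were Apoe, the main lipid carrier of the brain, and the sterol exporters Abca1 and Abcg1, at log2 fold changes of 2.66, 1.83 and 1.79. Microglia markers in the same sums were at 12.5 to 115 CPM early and 124 to 1275 CPM in the adult. Astrocyte markers were at 405 to 683 and 603 to 1046 CPM. The part of RNA from these classes in the 3 folds was not tested. Of 8 genes of SREBP processing and degradation 0 passed there.

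Some members share sequence or position with other genes. Acat2, acetoacetyl-CoA thiolase, has a close paralog, Acat3, and Fdps overlaps the protein-coding model Gm43738 on its own strand, so reads could be split between them. The 3′ ends of Mvd, Fdft1, Lss, Cyp51, Srebf1 and Npc1 overlap a gene on the other strand, and the strand setting used in counting is not given in the sources used here. Values of these members carry that uncertainty.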

How the data were processed

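The deposited files hold UMI counts per gene and cell barcode in 7 libraries, which the authors made with Cell Ranger (version 3.0.2 per the file headers) on the mouse build mm10 per the submitters' processing notes. Whether intronic reads were counted is not given in the sources used here. Barcodes with at least 500 genes and at most 10% mitochondrial UMIs were kept, and 293 scrublet doublet calls were removed. Cells were clustered with scanpy 1.11.5 (2000 variable genes without the pathway genes, 30 components, Leiden resolution 1.5), which gave 50 clusters, and 1527 cells stayed unnamed. Class sums of at least 20 cells per library were tested with edgeR 4.0.16 (TMM, filterByExpr, quasi-likelihood test, two-sided, Benjamini-Hochberg over all genes tested), with library as a block between classes. Alternatives used DESeq2 1.42.0, other scaling, filters and clusterings, and each library left out. Depth was 10074763 to 45668007 UMIs per library. On simulated counts for the OPC-like stage comparison (9762 genes), 22% of genes changed 2-fold and 83% of those changed 4-fold were called. For astrocyte-like against OPC-like cells (9748 genes) the shares were 59% and 98%. Exact Poisson, binomial and conditional 95% intervals cover counting error only. All 27 members were described by role, with values in every library for those called in most comparisons and the regulators, and at most 5 called genes were named per neighbouring list and comparison. Members and lists were chosen with earlier results of these data known.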

Additional observations from a re-analysis of the deposited data

Results flagged for a closer look

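Among 84 sets of 4 early libraries checked (27 members and their sum in OPC-like, astrocyte-like and microglia-like cells), 4 held a library far from the other 3 by Dixon's test of the gap against the range, which flags about 1 in 20 such sets by chance. In OPC-like cells Lss was at 13.3 CPM in P15 cortex and 31.9 to 32.9 CPM in the others. Scap in OPC-like cells was at 27.7 CPM in P7 SVZ and 33.5 to 34.3 CPM in the others. In astrocyte-like cells Mvd was at 169 CPM in P7 cortex and 116 to 123 CPM in the others. Lss in microglia-like cells was at 17.9 CPM in P2 cortex, from a sum of 25 cells, and 1.68 to 3.0 CPM in the others.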

How the results depend on the processing

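Each count of members was recomputed with DESeq2, without the low-count filter, with library-size scaling, with other cell filters and clusterings, and without each library in turn; 2 further settings, OPC-like cells of cluster 12 only and COP-like cells without cluster 33, were chosen after seeing the data. Leaving out libraries in turn gave 0 to 13 members lower and 0 to 3 higher between the stages of OPC-like cells, 0 to 10 lower and 0 to 3 higher in astrocyte-like cells, and 0 to 5 lower in microglia-like cells. Without cycling cells, OPC-like cells gave 6 lower and 0 higher, and with cluster 12 only 0 and 0. DESeq2 gave 6 members lower in astrocyte-like and 6 in microglia-like cells; no filter gave 6 and 3. For the stage by class terms, no filter gave 2 higher (astrocyte-like) and 2 lower (microglia-like), and leaving out libraries 0 to 6 higher and 0 to 2 lower.

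Between classes, leaving out libraries gave 0 to 1 members lower in COP-like cells, 8 to 17 lower and 0 to 2 higher in neuroblast-like cells and 0 to 1 higher in excitatory neuron-like cells. Without the library block COP-like cells gave 7 higher and 0 lower, astrocyte-like cells 0 lower, neuroblast-like cells 8 lower and excitatory neuron-like cells 0 higher. Sums of at least 50 cells, or no cluster 33, gave 0 lower in COP-like cells. Library-size scaling gave 11 higher in mature oligodendrocyte-like and 1 higher in microglia-like cells, and turned the fold of Scap in the former to -0.017 and of Insig2 in the latter to -0.31; it moved the median of all genes in OPC-like stages by 0.21. Neuroblast-like cells gave 9 lower with doublet calls kept, 8 at the 20% mitochondrial limit and 8 with pathway genes allowed in the clustering, and excitatory neuron-like cells 1 higher at the 20% limit. The cause of these changes was not tested. The counts under these settings are given without the share of all genes passing, so changes in the members are not told apart from changes among all genes. The level of summed members, neuroblast-like, mean over libraries, was 1131 CPM and 1418, 1401 and 1479 CPM under the same 3 settings. Without thinning, Hmgcs1 was detected in 49.4% of OPC-like, 100% of mature oligodendrocyte-like, 78.2% of astrocyte-like and 21.2% of microglia-like cells of P15 cortex. Recomputed over these settings, the folds of called members kept direction and call in 1433 cases, kept direction but not the call in 238 and reversed in 2. No paired analysis was possible because the labels give the stages no shared replicate numbers.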

Other observations

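In P7 cortex the astrocyte-like cells also fell into more than 1 cluster, and the summed members stood at 7545 against 5063 CPM, a ratio of 1.49 (95% interval 1.46 to 1.52) for cluster 28, whose leading genes include Igfbp2 and Aqp4, against cluster 2, led by Gfap. Of the 27 members 20 had a 95% interval above 1, 1 below 1 and 6 holding 1, for counting error only. The same counts over all genes are not given. Dissociation genes summed to 2407 CPM in cluster 28 and 6066 CPM in cluster 2, astrocyte markers to 13243 and 10112 CPM, and median UMIs per cell were 5716 and 8318; their part in the difference was not tested. Hmgcs1 was the member below 1, at 1051 against 1219 CPM, a ratio of 0.862 (95% interval 0.825 to 0.902), and Msmo1 was at 1343 against 505 CPM, a ratio of 2.66 (95% interval 2.5 to 2.83). Radial precursor-like cells, which were not part of any test, held 3851, 3585, 2949 and 1635 CPM of summed members in P2 cortex, P7 cortex, P7 SVZ and P15 cortex. Their Hmgcs1 levels there were 934, 859, 716 and 234 CPM, below the astrocyte-like values of 780.1, 1095, 1370.5 and 429 CPM in 3 of the 4 libraries and above in P2 cortex.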
